A study of Mus musculus with 24 samples.

Results

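The nuclear-encoded subunits of the mitochondrial respiratory chain were followed across 24 mRNA libraries of 4T1-T cells, a line of mouse mammary carcinoma. The pattern took symbols of the count table made only of Nduf, a subunit letter (a, b, c, s or v) and a number, or of Sdh and a letter from a to d. It also took all symbols that begin with Uqcr, Cox4 to Cox8 or Atp5. Members were those with at least 10 reads counted in at least 4 libraries. The pattern matched 83 symbols and 76 passed the minimum, out of 23478 symbols in all. Of the 76 genes, 34 belong to complex I, 4 to complex II, 8 to complex III, 12 to complex IV and 15 to complex V. The remaining 3 (Cox7a2l, Atp5s and Atp5sl) are associated factors whose names fit the pattern. Ndufa4 was counted with complex IV, where its protein is found.

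The respiratory chain sits in the inner mitochondrial membrane. Complexes I and II pass electrons from NADH and succinate to ubiquinone, complex III hands them to cytochrome c, and complex IV gives them to oxygen. Complexes I, III and IV pump protons as they do so, and complex V, the ATP synthase, uses the gradient to make ATP. Subunits of complexes I, III, IV and V are encoded partly by mitochondrial DNA, whereas complex II is wholly nuclear. In proliferating tumor cells the chain also regenerates the NAD+ needed to make aspartate, the amino acid from which asparagine synthetase, the product of Asns, makes asparagine.

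The cells were recovered from lung metastases or from primary tumors by selection in 6TG (6-thioguanine), which 4T1 cells survive and host cells do not. After isolation they were infected with a short hairpin RNA, labelled shAsns-1, shAsns-2 or, as the control, shRenilla, which targets a luciferase that mouse cells lack. Per the labels, the medium was DMEM supplemented with non-essential amino acids. All 24 libraries thus share hairpin infection, selection and medium. The 6 groups were lung shAsns-1, lung shAsns-2, lung shRenilla, tumor shAsns-1, tumor shAsns-2 and tumor shRenilla, with 4 libraries in each, lettered A to D. What the letters stand for (mice, cultures or repeat preparations) is not stated, so each p-value reflects only how far libraries spread within groups, which may be technical. Unless a fit left libraries out, all 24 shared in the estimate of this spread.

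Libraries held 8480908 (tumor shAsns-2 A) to 38049196 counts (tumor shAsns-2 B), and the 76 genes took 1.63 to 2.43% of them. In tumor cells Asns itself had 170 ± 17.1 CPM (the read count scaled to library size by TMM, mean ± SD, n = 4 throughout) in the libraries labelled shAsns-1 and 36.8 ± 10.3 CPM with shAsns-2, against 82.8 ± 15.9 CPM with shRenilla. In lung-derived cells it had 194 ± 18.2 CPM in the libraries labelled shAsns-1 and 44.6 ± 6.51 CPM with shAsns-2, against 63.6 ± 7.89 CPM with shRenilla. Asns was therefore higher, not lower, in the libraries labelled shAsns-1, and every direction given for them is a direction between labels. By edgeR's quasi-likelihood test against shRenilla, Asns was called lower with shAsns-2 in tumor cells (log2 fold change -1.18, adjusted p = 0.00122). In lung-derived cells its lower mean with shAsns-2 was not called (-0.51, adjusted p = 0.405). Markers of mammary tumor epithelium were detected throughout (7 of 7 genes tested). Their summed level was 425 to 478 CPM in lung shAsns-1, 384 to 787 CPM in lung shAsns-2, 428 to 600 CPM in lung shRenilla, 455 to 611 CPM in tumor shAsns-1, 910 to 1048 CPM in tumor shAsns-2 and 745 to 898 CPM in tumor shRenilla. Tumor shAsns-1 thus lay wholly below both other tumor groups. All 4 red cell markers were at 0. The lung epithelium markers summed to at most 0.253 CPM, the endothelial ones to 1.39 CPM, the muscle ones to 1.94 CPM, the leukocyte ones to 10.4 CPM and the fibroblast ones to 70.2 CPM. Fibroblast markers were highest in lung shAsns-1 (34.3 to 70.2 CPM) and lowest in tumor shRenilla (17.5 to 21.1 CPM); the part of either marker list in the results was not tested.

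Lung shAsns-2 D and lung shRenilla B both stood apart from the rest. Averaged over the members and relative to the mean of all libraries, lung shAsns-2 D lay at -0.31 and lung shRenilla B at -0.35 on the log2 scale, while the other 22 libraries lay between -0.19 and 0.28. Across genes, the deviation of lung shRenilla B also correlated with GC content (Pearson r = -0.57, a description over 11901 genes of a single library). Counts of members called that involve lung-derived cells are given below with and without this pair, except for the difference between sites of shAsns-2. Counts in the lists of related genes are given only with the pair included. Members were short, with a median transcript of 865 bases against 2923 bases for all genes tested. Values corrected for GC content and length are given where they move a result. Counts under other fits come without the share of all genes called under the same fit. They show only how calls move with the fit.

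The 5′ flanks of the members were compared for short words bound by regulators of respiratory genes: nuclear respiratory factor 1 (NRF-1, GCGCA and GCGC with any base between), the ETS family that includes GABP (CCGGAAG) and YY1 (AANATGG), each searched on both strands of the 250 bases before the start of the gene. RefSeq's promoter table (GRCm38.p6) held 62 of the 76 members. The NRF-1 word was present in 19.4% of them and in 3.74% of all 32851 promoters, the ETS word in 19.4% and 6.91%, and the YY1 word in 12.9% and 12.4%. The units differ: a member counted if any of its promoters held the word, whereas the background counts promoters, not genes. The 4 stretches below show what such a flank looks like, cut to the part that no GENCODE M21 exon covers and with ETS matches in capitals. They are Atp5e and Sdhd, which were called higher in tumor libraries labelled shAsns-1 (Sdhd only against shAsns-2) and hold the ETS word, Ndufb6, which holds it and was not called, and Ndufb8, which was called and holds none of the 3 words. In its full 250 bases Sdhd also holds the NRF-1 word, outside the stretch shown.
Atp5e, chr2:174464106-174464351, minus strand: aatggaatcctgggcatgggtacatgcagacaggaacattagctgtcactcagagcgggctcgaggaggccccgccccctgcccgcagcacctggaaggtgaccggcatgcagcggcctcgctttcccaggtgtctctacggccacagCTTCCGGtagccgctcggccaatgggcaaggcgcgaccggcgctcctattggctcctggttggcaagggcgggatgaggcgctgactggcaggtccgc
Sdhd, chr9:50603850-50603909, minus strand: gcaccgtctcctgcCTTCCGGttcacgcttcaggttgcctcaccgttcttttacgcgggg
Ndufb6, chr4:40279422-40279671, minus strand: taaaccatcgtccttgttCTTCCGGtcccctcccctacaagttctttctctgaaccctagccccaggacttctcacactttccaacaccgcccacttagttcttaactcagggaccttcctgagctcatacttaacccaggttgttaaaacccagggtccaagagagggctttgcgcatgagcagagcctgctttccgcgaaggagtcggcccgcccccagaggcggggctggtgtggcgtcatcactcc
Ndufb8, chr19:44555443-44555692, minus strand: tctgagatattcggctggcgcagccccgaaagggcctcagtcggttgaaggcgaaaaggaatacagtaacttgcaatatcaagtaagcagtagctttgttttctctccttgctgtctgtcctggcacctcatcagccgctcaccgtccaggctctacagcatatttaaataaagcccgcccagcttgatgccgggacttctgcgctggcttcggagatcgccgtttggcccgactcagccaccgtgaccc

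All 5 complexes were expressed, at levels that differed widely between genes. Per kb of transcript, the median member had 680 CPM in complex IV, 312 CPM in complex III, 273 CPM in complex V, 166 CPM in complex I and 150 CPM in complex II (means of all 24 libraries). The highest of each complex were Ndufb9 in complex I (2257 CPM per kb), Ndufa4 in complex IV (1447 CPM per kb), Atp5c1, the central shaft of the ATP synthase, in complex V (943 CPM per kb), Uqcrb in complex III (906 CPM per kb) and Sdhd, a membrane anchor, in complex II (281 CPM per kb). The lowest were Cox7a1 (1.13 CPM per kb), a subunit typical of heart and muscle, Atp5s (11.9 CPM per kb) and Ndufb2 (15.2 CPM per kb). The value of Ndufb2 rests on a transcript of 4371 bases, and the gene had 66.6 CPM before division by length. The plot of levels per length shows that complex I spans the widest range apart from Cox7a1.

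**Figure D1:**
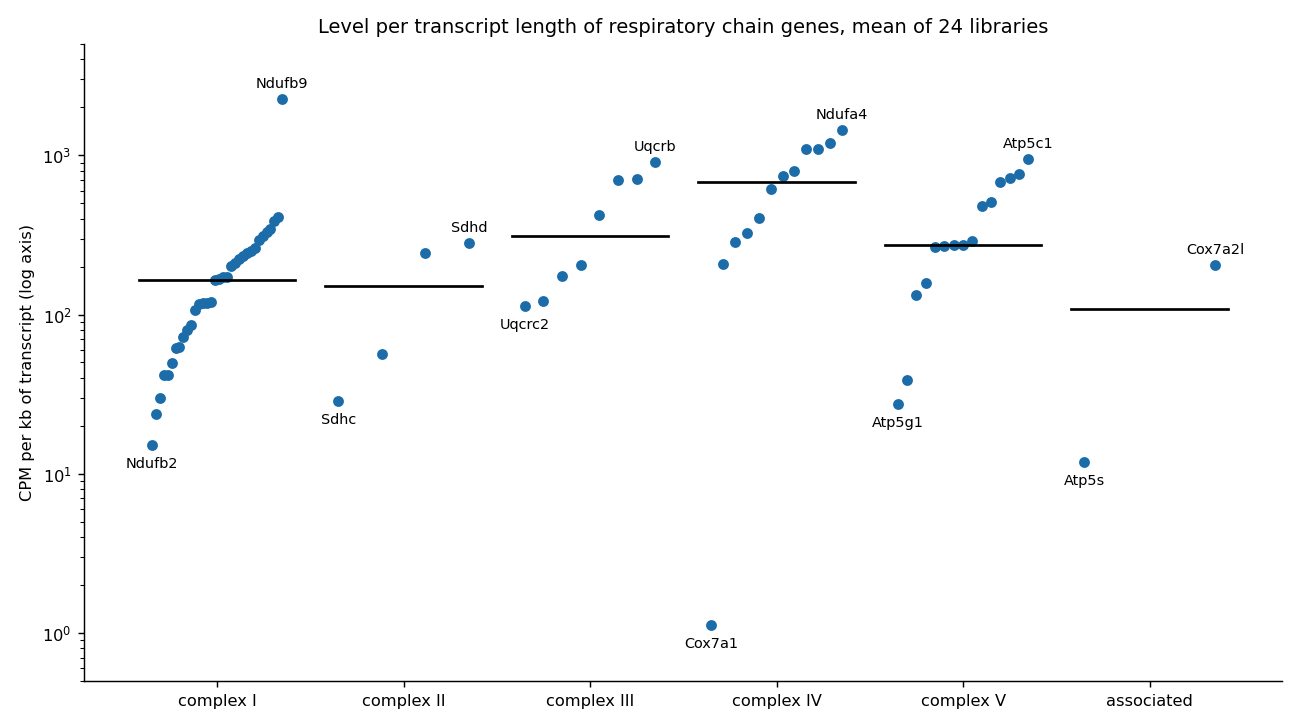
Level of each member per kb of transcript (CPM per kb, log axis, mean of 24 libraries), 1 point per gene, by complex, with the median as a bar; the highest and lowest gene of each complex are named. Complex IV has the highest median (680 CPM per kb), and Ndufb9 of complex I the highest level (2257 CPM per kb).

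Where a subunit has several isoforms, the ubiquitous form prevailed. Of the Cox7a1 and Cox7a2 pair, which distinguishes muscle from other tissues, Cox7a2 made up at least 99.6% of the level per length in every library. Cox4i1, Cox6a1, Cox6b1, Cox7b and Cox8a likewise stood alone: over all 24 libraries Cox4i2, the form known for its rise in lung and under low oxygen, had 10 counts in all, Cox6a2 22, Cox6b2 10, Cox7b2 87, Cox8b 2 and Cox8c 4. These 6 genes were below the minimum and are not members; at 3 counts a library, the limit of detection lies at 0.0803 to 0.359 CPM. The remaining symbol below the minimum, Ndufs5, was listed at 0 in every library although it encodes an accessory subunit of complex I, all of whose other matched subunits were detected. In GENCODE M21, 31.1% of its 50-base words occur in the transcript of another gene. For the ring of c subunits, whose 3 genes encode the same mature protein, Atp5g3 supplied 81.7 to 84.7% of the level per length in the 6 group means, Atp5g2 12.5 to 15.6% and Atp5g1 2.63 to 3.78%. These shares depend on the transcript taken for each gene, which had 4715 bases for Atp5g1, 731 for Atp5g2 and 723 for Atp5g3. Not divided by length, the means of all libraries were 130 CPM for Atp5g1, 96.5 CPM for Atp5g2 and 548 CPM for Atp5g3. The share of Atp5g1 was highest in tumor shAsns-1 (3.78 ± 0.48%) and lowest in tumor shRenilla (2.63 ± 0.43%).

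Members varied little among the 6 groups. The ratio of the highest to the lowest group mean had a median of 1.29 among members and of 1.42 among the 12625 genes tested, and it was under 1.5 for 66 of 76 members (86.8%) against 59.3% of all genes tested. The median coefficient of variation within groups was 11.2% for members and 14.0% for all genes tested. Members also had a higher level, with a median of 185 CPM against 18.5 CPM for genes tested that have a known length. Genes of matched level were not compared, so the part of level in these ratios was not tested. Uqcrc1, a core protein of complex III, had the widest range (1.88), followed by Ndufb7 (1.66) and Ndufb8 (1.65). The group with the highest mean was tumor shAsns-1 for 47 of 76 members, 24 of them in complex I. The lowest mean was in lung shRenilla for 26 members and in tumor shAsns-2 for 23. The shares of all genes tested with their highest or lowest mean in these groups are not given. These counts therefore do not set members apart from other genes.

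Summed over its 34 members, complex I had 7837, 7027, 7208 and 6736 CPM in tumor shAsns-1 libraries A to D, 5735, 6657, 6647 and 5514 CPM in tumor shAsns-2, and 7369, 5634, 6105 and 6823 CPM in tumor shRenilla. All 4 libraries labelled shAsns-1 were above all 4 of shAsns-2, and they overlapped with shRenilla. In lung-derived cells the sums were 6390, 5889, 5963 and 5797 CPM with shAsns-1, 6619, 6901, 6623 and 4793 CPM with shAsns-2, and 6050, 4819, 6421 and 6404 CPM with shRenilla. The lung groups overlapped with each other, and the low values are those of shAsns-2 D and shRenilla B. The 4 libraries of complex II in tumor shAsns-1 (886 to 1062 CPM) likewise lay above those of shAsns-2 (586 to 836 CPM). Complex II summed to 978 ± 77.6 CPM in tumor shAsns-1 and 749 ± 112 CPM in tumor shAsns-2, against 793 ± 108 CPM in tumor shRenilla. It summed to 901 ± 59.4, 931 ± 181 and 931 ± 73.1 CPM in lung shAsns-1, shAsns-2 and shRenilla. Complexes III, IV and V had overlapping ranges between the hairpins at each site, apart from complex III in the tumor, where the 4 libraries labelled shAsns-1 (2436 to 2858 CPM) lay above the 4 of shAsns-2 (2044 to 2422 CPM). A lower sum in bulk RNA can come from fewer cells of a kind or from less RNA per cell, which cannot be told apart.

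**Figure D2:**
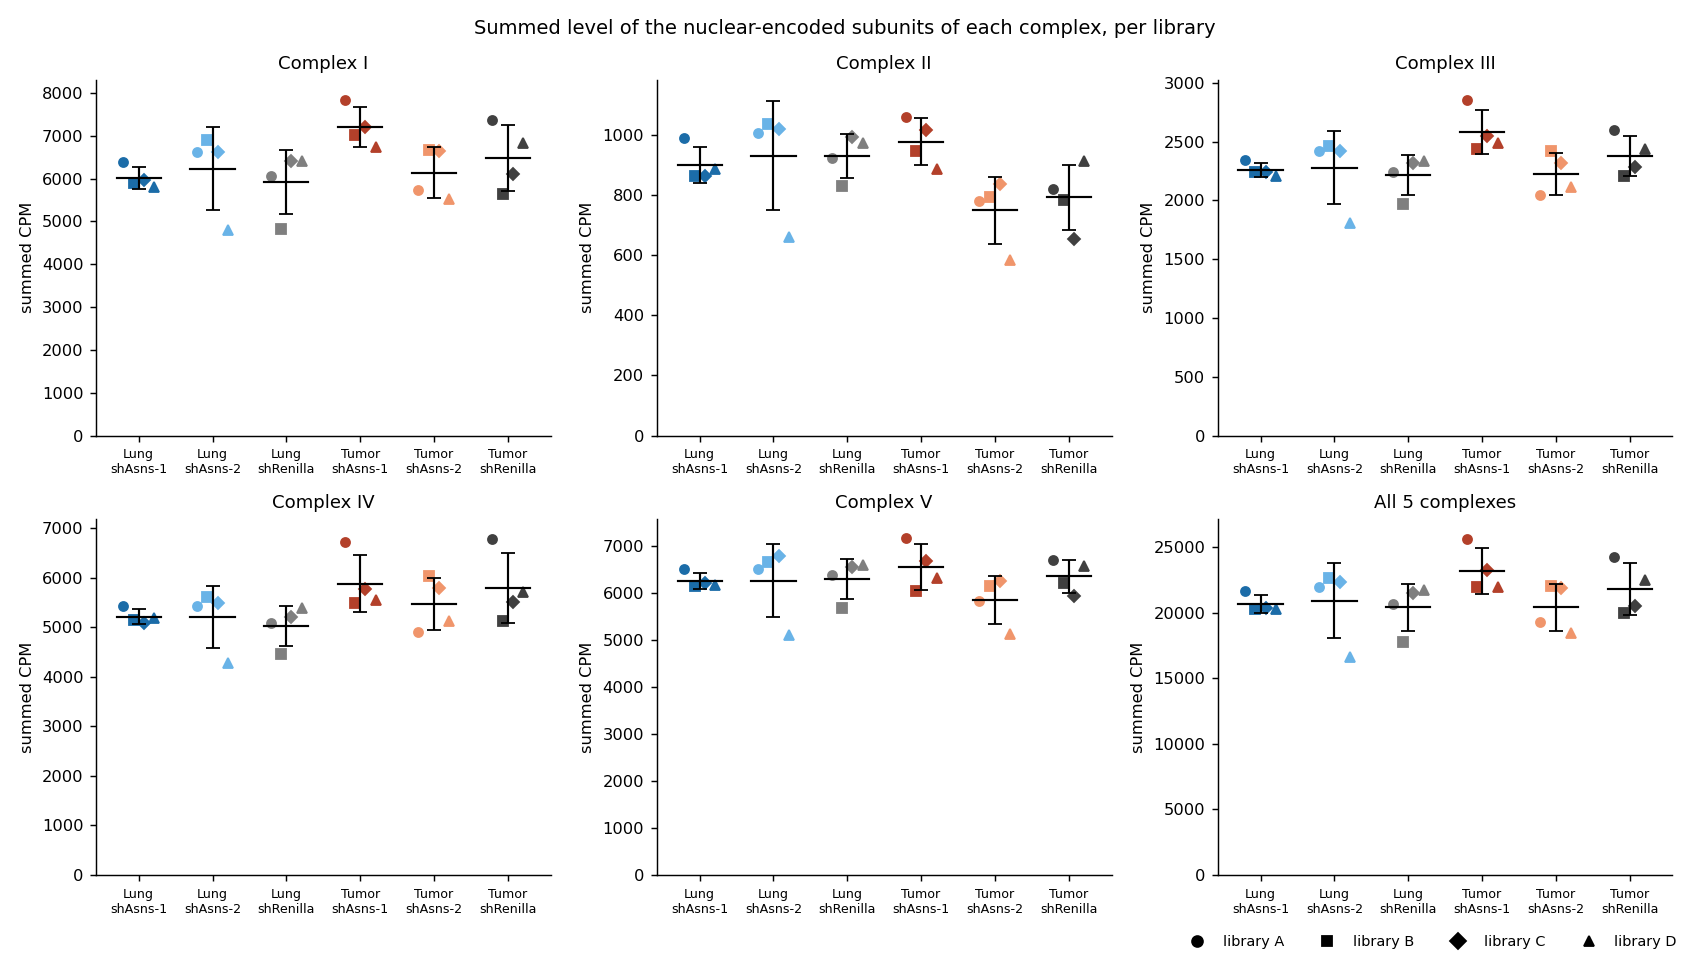
Summed CPM of the members of each complex and of all 5 complexes, by group; each symbol is a library (A to D), and bars give the mean ± SD of 4 libraries. Complex I is highest in tumor shAsns-1 (7202 ± 466 CPM), and the low outlying points in the lung groups are shAsns-2 D and shRenilla B.

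The tumor libraries labelled shAsns-1 were first set against tumor shRenilla, the comparison of a hairpin with its control in cells from the primary site. By edgeR's quasi-likelihood test with Benjamini-Hochberg adjustment over all 12625 genes (threshold 0.05), 16 of 76 members were higher and 1 was lower. Among all genes tested 16.2% were higher and 17.7% were lower, so the share of members called higher (21.1%) was near the background and the share called lower (1.32%) was well under it. The median log2 fold change was 0.14 over the members and -0.01 over all genes tested, and 52 of 76 members lay above 0. The largest rise was 0.68 on the log2 scale (Ndufb7), and no member changed 2-fold. For 21 members all 4 libraries labelled shAsns-1 lay above all 4 of shRenilla and for 1 they lay below, where 18.6% of all genes tested lay wholly above and 18.6% wholly below. Complex I held 11 of the 16 higher members out of 34, complex II 1 of 4, complex III 1 of 8, complex V 2 of 15 and the associated factors 1 of 3; none of the 12 members of complex IV was called. Across the same libraries the mammary tumor epithelium markers summed to 455 to 611 CPM in shAsns-1, against 745 to 898 CPM in shRenilla, and the part of this difference in the calls was not tested.

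In complex I, the called genes came from both arms, 6 of 16 in the peripheral arm, where NADH is oxidised, and 5 of 18 in the membrane arm, which pumps protons. Ndufb7, an accessory subunit of the membrane arm (chr8:83566671-83571626, plus strand, GRCm38), had 155, 159, 144 and 123 CPM in tumor shAsns-1 libraries A to D, against 110, 74.6, 77.6 and 101 CPM in shRenilla. The groups did not overlap, and the difference was 0.68 ± 0.21 (log2, ± SE, adjusted p = 0.0143). Ndufb8, another membrane arm subunit and a usual antibody target for assembled complex I, had 329, 343, 317 and 272 CPM in shAsns-1, against 235, 166, 175 and 249 CPM in shRenilla. It rose by 0.61 ± 0.19 (adjusted p = 0.0158), again without overlap, and in both genes shRenilla B and C were the lowest. Ndufv3, an accessory subunit beside the NADH-binding site, varied little among the shAsns-1 libraries: it had 84.5, 84.3, 83.0 and 82.6 CPM in shAsns-1, against 63.9, 45.5, 57.4 and 57.0 CPM in shRenilla (0.58 ± 0.15, adjusted p = 0.00329).

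Ndufa12, a peripheral arm subunit that takes the place of an assembly factor late in assembly, had 178, 176, 167 and 165 CPM in shAsns-1, against 147, 109, 115 and 135 CPM in shRenilla. It rose by 0.44 ± 0.12 (adjusted p = 0.00567). Of the core subunits, which have bacterial counterparts, Ndufs3 averaged 78.8 ± 2.75 CPM in shAsns-1 and 58.9 ± 5.17 CPM in shRenilla (0.42 ± 0.13, adjusted p = 0.0147). Ndufv2, which binds an iron-sulfur cluster, averaged 429 ± 16.1 CPM in shAsns-1 and 324 ± 36.7 CPM in shRenilla (0.41 ± 0.13, adjusted p = 0.0152). Neither overlapped between groups. Among the core subunits that were not called, Ndufv1, the NADH-binding subunit, had a log2 fold change of -0.36 ± 0.16 (adjusted p = 0.0767) and Ndufs1 of -0.09 ± 0.10 (adjusted p = 0.508). The remaining called members of complex I were Ndufa7, Ndufa2, Ndufb2, Ndufb11 and Ndufc1, with log2 fold changes of 0.32 to 0.47; only Ndufc1 overlapped between groups.

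In complex II the iron-sulfur subunit was called and the others were not. Sdhb had 377, 357, 358 and 300 CPM in tumor shAsns-1 libraries A to D, against 256, 219, 161 and 287 CPM in shRenilla (0.59 ± 0.19, adjusted p = 0.0196). The flavoprotein Sdha had a log2 fold change of -0.09 ± 0.09 (adjusted p = 0.458), and the anchors Sdhc and Sdhd had 0.10 ± 0.15 and 0.31 ± 0.16 (adjusted p = 0.626 and 0.147). In complex III the hinge protein Uqcrh averaged 481 ± 37.7 CPM in shAsns-1 and 381 ± 37.7 CPM in shRenilla (0.34 ± 0.11, adjusted p = 0.0193). The core protein Uqcrc1 lay the other way, at -0.42 ± 0.20 (adjusted p = 0.111), and the Rieske protein Uqcrfs1 at 0.10 ± 0.10 (adjusted p = 0.463).

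In complex IV the log2 fold changes ran from -0.17 to 0.22, and no member had an unadjusted p under 0.05; Cox4i1, the subunit that starts its assembly, had -0.10 ± 0.18 (adjusted p = 0.679). In complex V, 2 members were higher and 1 was lower. Atp5e, the epsilon subunit at the foot of the central stalk, had 402, 344, 381 and 377 CPM in tumor shAsns-1, against 316, 243, 301 and 272 CPM in shRenilla (0.41 ± 0.11, adjusted p = 0.00597). The c subunit gene Atp5g1 averaged 169 ± 7.92 CPM in shAsns-1 and 123 ± 20.6 CPM in shRenilla (0.46 ± 0.17, adjusted p = 0.0387). The alpha subunit Atp5a1, part of the catalytic head, was the member that fell, to 569 ± 17.7 CPM in shAsns-1, against 681 ± 45.6 CPM in shRenilla (-0.26 ± 0.09, adjusted p = 0.0219). Its call was lost without the expression filter and after correction for GC content and length. The groups did not overlap for any of these 3 genes. The catalytic partner Atp5b had -0.14 ± 0.10 (adjusted p = 0.313). Cox7a2l, a factor that joins complexes III and IV into supercomplexes, averaged 269 ± 9.80 CPM in shAsns-1 and 207 ± 11.5 CPM in shRenilla (0.38 ± 0.11, adjusted p = 0.0109).

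Of the 17 calls, 4 (Atp5e, Cox7a2l, Ndufa12 and Ndufv3) remained under all 9 other ways of fitting and with every library left out in turn. Without shRenilla B 4 members were called, without shRenilla C 11 and without shAsns-1 A 10. Limma with library weights called 34, edgeR without the 2 outlying lung libraries 30, and a fit restricted to the compared groups 26. After correction for GC content and length the counts were 20 higher and 5 lower, and the median fell to 0.09. That correction lost the calls of Atp5a1, Atp5g1 and Ndufc1, so Atp5a1 is not among those 5. Of the members called higher, 15 had a promoter entry: none of them held the NRF-1 word, 4 held the ETS word (Atp5e, Ndufb7, Ndufs3 and Uqcrh) and 2 the YY1 word, against 12, 8 and 6 of the 47 other members with an entry. Of the 12 with the NRF-1 word, Sdhd and Ndufa11 were called higher in tumor shAsns-1 against shAsns-2.

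**Figure D3:**
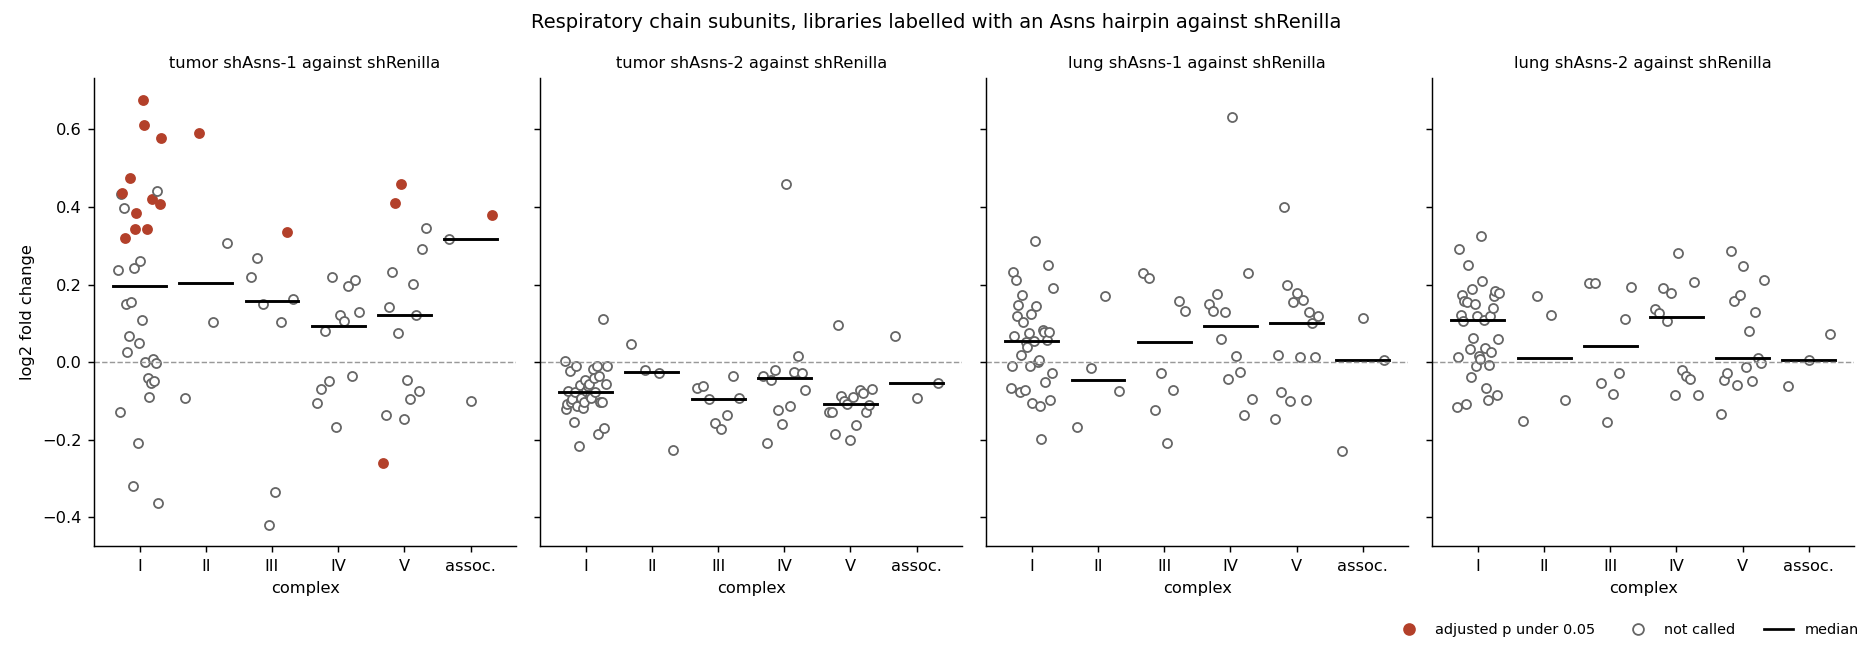
Log2 fold change of each member in the libraries labelled shAsns-1 or shAsns-2 against shRenilla, at each site, by complex; filled points have an adjusted p under 0.05 and bars are medians. Called members appear in tumor shAsns-1 alone, 11 of them in complex I, and none in complex IV.

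With shAsns-2, the hairpin under which Asns was lower, no member was called in tumor-derived cells by edgeR, and none had an unadjusted p under 0.05; DESeq2 and limma made no call either. Among all genes tested, 0.0396% were higher and 0.0238% were lower, so few calls were made anywhere. The members lay on the low side: 69 of 76 had a log2 fold change under 0, with a median of -0.08 against 0.01 for all genes tested, and this median was -0.02 after correction for GC content and length. It was -0.02 without shRenilla A, -0.03 without shAsns-2 A and -0.04 without shAsns-2 D, and -0.14 without shRenilla B and -0.13 without shAsns-2 B or C. Single members were bounded closely, since the 95% interval lay within 1.5-fold either way for 75 of 76. The 3 with the smallest unadjusted p were Atp5a1 (-0.13 ± 0.09, adjusted p = 0.805), Ndufs3 (-0.19 ± 0.13, adjusted p = 0.817) and Sdhd (-0.23 ± 0.16, adjusted p = 0.821), and all 3 overlapped between groups. Sdhd, for example, averaged 261 ± 59.3 CPM in shAsns-2 and 306 ± 54.0 CPM in shRenilla.

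Set directly against tumor shAsns-2, the tumor libraries labelled shAsns-1 had 19 members higher and none lower (edgeR, adjusted p under 0.05), where 12.1% of all genes tested were higher and 15.0% were lower. For 26 members all 4 libraries labelled shAsns-1 lay above all 4 of shAsns-2 and for none below, where 13.9% of all genes tested lay wholly above and 15.8% wholly below. The median log2 fold change was 0.22 against -0.02 for all genes tested. The mammary tumor epithelium markers summed to 455 to 611 CPM in shAsns-1, against 910 to 1048 CPM in shAsns-2, and their part was not tested here either. Complex I held 12 of the calls, complex II 2, complex III 1, complex V 3 and the associated factors 1, and complex IV again none. This comparison shares the shAsns-1 libraries with the one against shRenilla, so the values are given side by side only. Ndufb7 had 0.73 ± 0.21 (adjusted p = 0.0112), with 145 ± 16.0 CPM in shAsns-1 and 87.4 ± 16.6 CPM in shAsns-2. Ndufb8 had 0.70 ± 0.19 (adjusted p = 0.00887), and Ndufs3 had 0.61 ± 0.13 (adjusted p = 0.00127), with 78.8 ± 2.75 CPM in shAsns-1 and 51.8 ± 4.32 CPM in shAsns-2.

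In complex II the iron-sulfur subunit and an anchor were called in this comparison. Sdhb averaged 348 ± 33.4 CPM in shAsns-1 and 228 ± 52.6 CPM in shAsns-2 (0.61 ± 0.19, adjusted p = 0.0201). Sdhd had 438, 329, 412 and 335 CPM in shAsns-1 libraries A to D, against 266, 311, 292 and 177 CPM in shAsns-2 (0.53 ± 0.16, adjusted p = 0.0165), without overlap. In complex V, Atp5g1 (0.57 ± 0.17, adjusted p = 0.0153), Atp5e (0.50 ± 0.11, adjusted p = 0.00174) and Atp5l (0.40 ± 0.13, adjusted p = 0.0199) were higher, and in complex III Uqcrh was (0.37 ± 0.11, adjusted p = 0.0133). Other members of complex I among the largest changes were Ndufv3 (0.59 ± 0.15), Ndufa11 (0.54 ± 0.18), Ndufa12 (0.51 ± 0.12) and Ndufb2 (0.50 ± 0.12), with adjusted p of 0.00417, 0.0258, 0.00222 and 0.00233. Of the 19 calls, 12 remained under every other fit and with each library left out. Without lung shRenilla B, which enters only through the steps shared by all libraries (filter, scaling and estimate of spread), 29 members were called. After correction for GC content and length the median was 0.11, with 21 higher and 1 lower. The calls of Atp5l and Ndufc1 were lost under that correction.

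**Figure D4:**
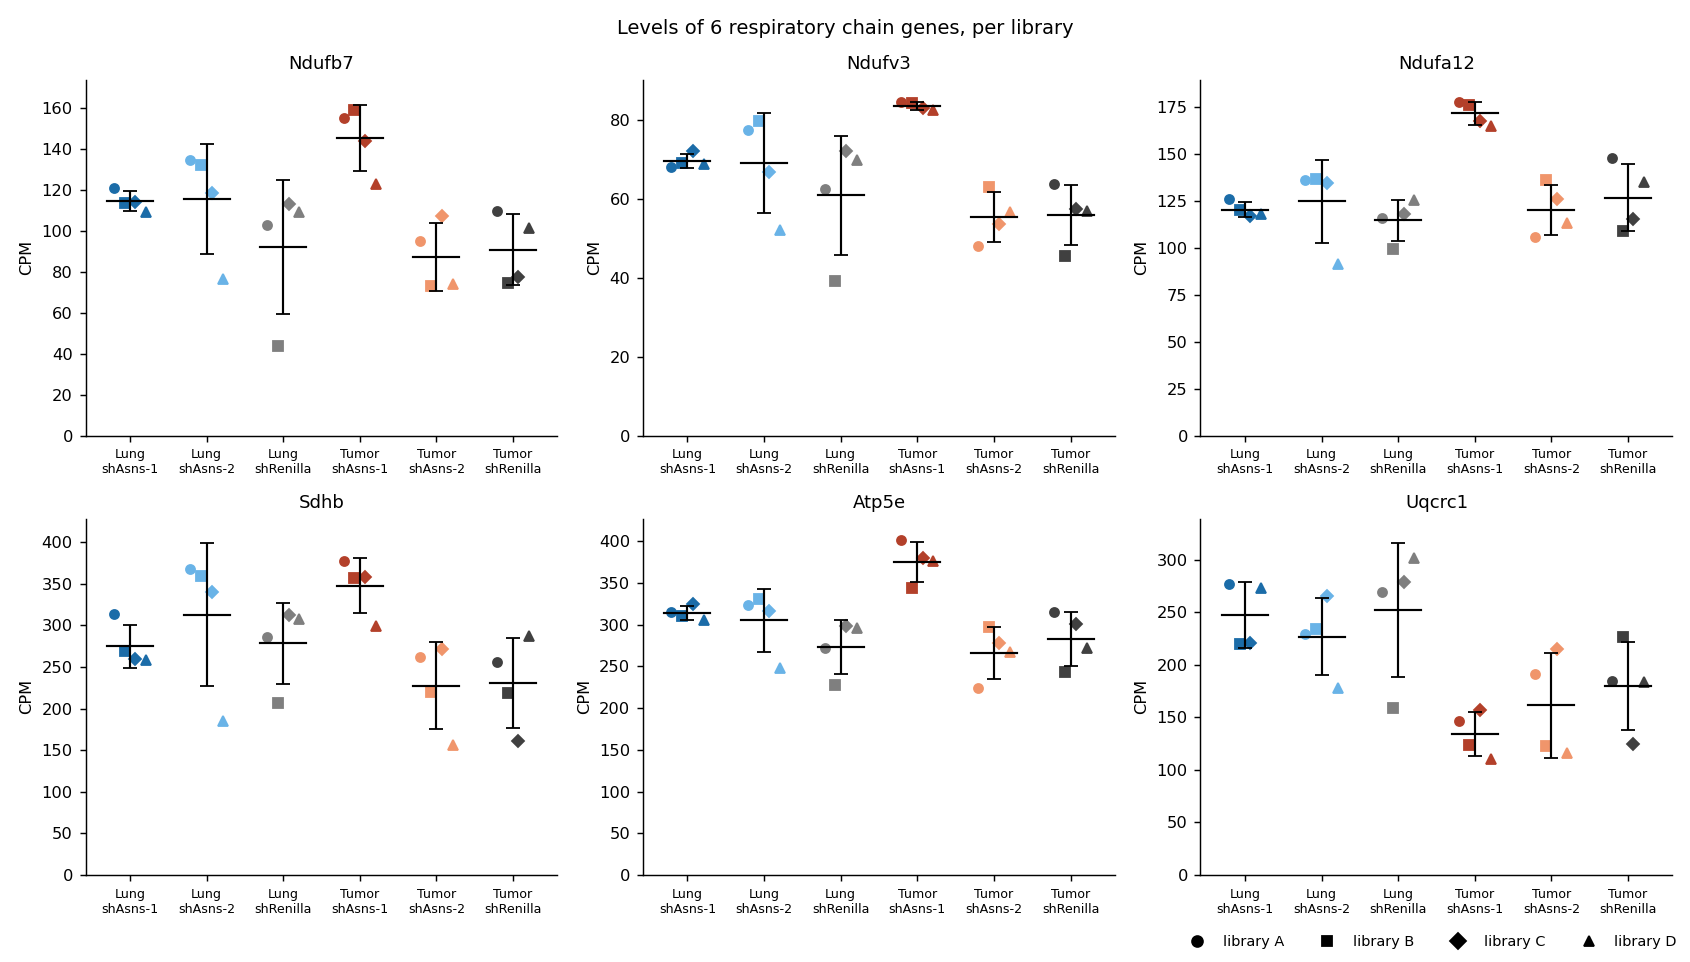
CPM of 6 members in each library (symbols A to D) by group, with the mean ± SD of 4 libraries. Ndufb7, Ndufv3, Ndufa12, Sdhb and Atp5e are highest in tumor shAsns-1, whereas Uqcrc1 is lowest there (134 ± 21.0 CPM) and higher in all 3 lung groups.

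In lung-derived cells neither edgeR nor DESeq2 called a member between the hairpins. The libraries labelled shAsns-1 had a median log2 fold change of 0.06 against shRenilla, where 0.0713% of all genes tested were higher and 0.135% were lower. Atp5d, the delta subunit of the central stalk, had the smallest p: 61.1 CPM on average in shAsns-1 and 46.3 CPM in shRenilla (0.40 ± 0.16, adjusted p = 0.318). It was the only member with an unadjusted p under 0.05 there, and it was followed by Ndufs1 (-0.20 ± 0.10, adjusted p = 0.383) and Sdha (-0.17 ± 0.09, adjusted p = 0.420). With shAsns-2 the median was 0.08 and no gene of the whole table, Asns included, was called (0.0%), with 1068 genes of 12625 but no member at an unadjusted p under 0.05. Atp5d (0.29 ± 0.16), Sdha (-0.15 ± 0.09) and Ndufa11 (0.29 ± 0.18) came nearest, at adjusted p of 0.632, 0.653 and 0.658.

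The lung libraries labelled shAsns-1 against lung shAsns-2 had a median of -0.02, and 0.143% of all genes tested were higher and 0.119% lower. Ndufa6, Atp5s and Ndufs1 had the smallest p there, each with an adjusted p of 0.994. The 95% intervals of single members lay within 1.5-fold either way for 72, 71 and 75 of 76 members in these 3 lung comparisons, and the widest bounds were those of Cox7a1, the lowest expressed. Leaving out 1 compared library at a time gave medians of -0.03 to 0.10 for shAsns-1 against shRenilla, 0.02 to 0.21 for shAsns-2 against shRenilla and -0.13 to 0.01 for shAsns-1 against shAsns-2. DESeq2 called none in the 3 comparisons. Limma with library weights called none against shRenilla but 9 members lower in shAsns-1 than in shAsns-2, and without lung shAsns-2 D and lung shRenilla B the 3 medians were -0.02, 0.11 and -0.11, still with no call.

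Whether the hairpin differences depended on the site was tested as a difference of differences. For neither hairpin against shRenilla was a member called by edgeR: 6.96% of all genes tested were higher and 7.27% lower for shAsns-1, and 0.0% for shAsns-2. For shAsns-1, 5 members had an unadjusted p under 0.05, and Atp5s (-0.55 ± 0.21), Ndufv2 (-0.44 ± 0.18) and Cox7a2l (-0.37 ± 0.16) came nearest, at adjusted p of 0.0766, 0.104 and 0.115. DESeq2 made no call, limma called 22 members lower, and edgeR called 11 lower with both outlying lung libraries left out, 4 without lung shRenilla B, 3 without lung shAsns-2 D and 1 without tumor shAsns-2 B or tumor shRenilla D. For shAsns-2 no member had an unadjusted p under 0.05, the nearest being Atp5g2 (0.45 ± 0.23), Ndufs3 (0.30 ± 0.19) and Ndufb2 (0.27 ± 0.16), each with an adjusted p of 0.972. For the difference between sites of shAsns-1 against shAsns-2, a comparison added after results were seen, 5 members were called lower, where 6.89% of all genes tested were higher and 4.74% lower. These were Ndufs3 (-0.65 ± 0.19), Ndufb2 (-0.58 ± 0.16), Ndufa12 (-0.57 ± 0.17), Ndufv2 (-0.55 ± 0.18) and Cox7a2l (-0.50 ± 0.16), with adjusted p of 0.0229, 0.0221, 0.0274, 0.0462 and 0.0405. Ndufb2 and Ndufv2 lost their calls after correction for GC content and length. The count of members called was 34 without both outlying libraries, 27 without lung shAsns-2 D, 16 without lung shRenilla B and 10 without tumor shAsns-2 B. It was 0 without lung shAsns-2 A or B, 1 without lung shAsns-1 D, 2 without lung shAsns-1 C, lung shAsns-2 C or tumor shAsns-2 D, and 3 without lung shAsns-1 B, tumor shAsns-1 A or C or tumor shAsns-2 A, so no call was kept throughout.

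Lung-derived and tumor-derived cells were then compared within each hairpin. In the libraries labelled shAsns-1, 1 member was higher and 6 were lower in lung, where 6.0% of all genes tested were higher and 2.54% lower. The median log2 fold change was -0.22 over the members and 0.03 over all genes tested. For 45 members all 4 lung libraries lay below all 4 tumor libraries and for 7 they lay above, where 14.5% of all genes tested lay wholly below and 15.5% wholly above. Fibroblast markers summed to 34.3 to 70.2 CPM in lung and 24.0 to 32.4 CPM in tumor, and leukocyte markers to 3.74 to 10.4 and 1.42 to 2.54 CPM. Muscle markers lay the other way (0.579 to 1.37 CPM in lung, 1.81 to 1.94 CPM in tumor). Mammary tumor epithelium markers overlapped (425 to 478 and 455 to 611 CPM), as did the endothelial and lung epithelium ones. The part of these markers was not tested. The gene that rose was Uqcrc1, the core protein of complex III, with 277, 220, 221 and 273 CPM in lung libraries A to D, against 147, 123, 157 and 111 CPM in tumor libraries (0.88 ± 0.20, adjusted p = 0.00824). This was the largest difference of any member in any comparison, 1.84-fold, and the only one called in its direction there.

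The 6 members that were lower came from complexes I and III. Ndufa12 had 126, 120, 117 and 118 CPM in lung, against 178, 176, 167 and 165 CPM in tumor (-0.51 ± 0.12, adjusted p = 0.00829). Ndufa7, a peripheral arm subunit near the quinone site, averaged 145 ± 8.06 CPM in lung and 209 ± 22.1 CPM in tumor (-0.53 ± 0.16, adjusted p = 0.0386). Ndufb5 of the membrane arm had -0.43 ± 0.13 (adjusted p = 0.0386), Ndufv2 -0.43 ± 0.13 (adjusted p = 0.0365) and Ndufs4, whose loss in mice causes a Leigh-like disease, -0.36 ± 0.10 (adjusted p = 0.0304). Uqcrh averaged 374 ± 15.4 CPM in lung and 481 ± 37.7 CPM in tumor (-0.36 ± 0.11, adjusted p = 0.0372). None of the 7 genes overlapped between the sites. Ndufa12 and Uqcrc1 remained called under every other fit and with each library left out; leaving out any of the 8 libraries compared left 2 to 4 calls. The outlying lung libraries enter this comparison only through the steps shared by all libraries (filter, scaling and estimate of spread). The number of members called was 14 without lung shAsns-2 D, 20 without lung shRenilla B and 36 without both. A fit restricted to the compared groups gave 7 higher and 44 lower, but the share of all genes called in that fit is not given here. After correction for GC content and length the median was -0.13, with 1 higher and 11 lower. Of the 6 lower members named above, Ndufs4, Ndufv2 and Uqcrh lost their calls under that correction.

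With shAsns-2, 2 members were higher and 1 was lower in lung, where 10.1% of all genes tested were higher and 10.9% lower. All 3 are in complexes I and II. The mammary tumor epithelium markers summed to 384 to 787 CPM in these lung libraries, against 910 to 1048 CPM in tumor, and their part was not tested. Sdhd had 375, 412, 423 and 256 CPM in lung libraries A to D, against 266, 311, 292 and 177 CPM in tumor libraries (0.49 ± 0.16, adjusted p = 0.0337); library D was the lowest at both sites and the groups overlapped. Sdha moved the other way, with 153, 155, 153 and 137 CPM in lung, against 169, 194, 184 and 180 CPM in tumor (-0.28 ± 0.09, adjusted p = 0.0267), and did not overlap. Ndufs3 averaged 67.8 ± 12.6 CPM in lung and 51.8 ± 4.32 CPM in tumor (0.39 ± 0.13, adjusted p = 0.0364) with an overlap. Sdhb and Sdhc had 0.46 ± 0.19 (adjusted p = 0.0920) and 0.38 ± 0.15 (adjusted p = 0.0717). Without lung shAsns-2 D 13 members were called, all higher, without lung shRenilla B 7, without lung shAsns-2 A none, and without lung shAsns-2 B or C or tumor shAsns-2 B or D 1; without both outlying libraries 18 were higher and 1 lower.

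In the control hairpin, no member was higher and 3 were lower in lung, where 12.0% of all genes tested were higher and 9.82% lower. These were Atp5g2, Uqcr10 and Ndufs4. The same markers summed to 428 to 600 CPM in lung shRenilla, against 745 to 898 CPM in tumor shRenilla, again untested as to their part. Atp5g2, a c subunit gene, had 86.3, 44.9, 96.8 and 92.9 CPM in lung shRenilla libraries A to D, against 126, 98.7, 101 and 125 CPM in tumor shRenilla (-0.49 ± 0.16, adjusted p = 0.0313). All lung libraries lay below all tumor libraries, lung B lowest by far, and 87.4% of the gene's 50-base words occur in other genes. Uqcr10, a small subunit of complex III, averaged 253 ± 48.5 CPM in lung and 326 ± 41.3 CPM in tumor (-0.37 ± 0.13, adjusted p = 0.0378) with an overlap. Its call was lost after correction for GC content and length. Ndufs4 had 163, 162, 162 and 167 CPM in lung, against 225, 181, 197 and 201 CPM in tumor (-0.30 ± 0.10, adjusted p = 0.0378), so that it was lower in lung here and in the shAsns-1 label.

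All 12 members of complex IV had a log2 fold change under 0 in the control hairpin, with a median of -0.22, and none was called. Among all genes tested, 6298 of 12625 lay under 0. Averaged over complex IV and relative to all libraries, lung shRenilla B lay at -0.32 and tumor shRenilla A at 0.29 (log2). The other lung shRenilla libraries lay at -0.08 to -0.02 and the other tumor shRenilla ones at -0.10 to 0.07. The median of complex IV without these libraries is not given. Uqcrc1 had 0.49 ± 0.20 with shRenilla and 0.49 ± 0.20 with shAsns-2 (adjusted p = 0.0847 and 0.0862), so that its group means were higher in lung under all 3 labels and it passed the test under shAsns-1. Without tumor shRenilla A no member was called in the control hairpin, and without tumor shRenilla B, lung shRenilla B or lung shAsns-2 D 5 were; without both outlying libraries 4 were higher and 5 lower, and a fit restricted to the compared groups called none. DESeq2 called the same 3 members as edgeR with shRenilla, and all 7 edgeR calls with shAsns-1 among 15.

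**Figure D5:**
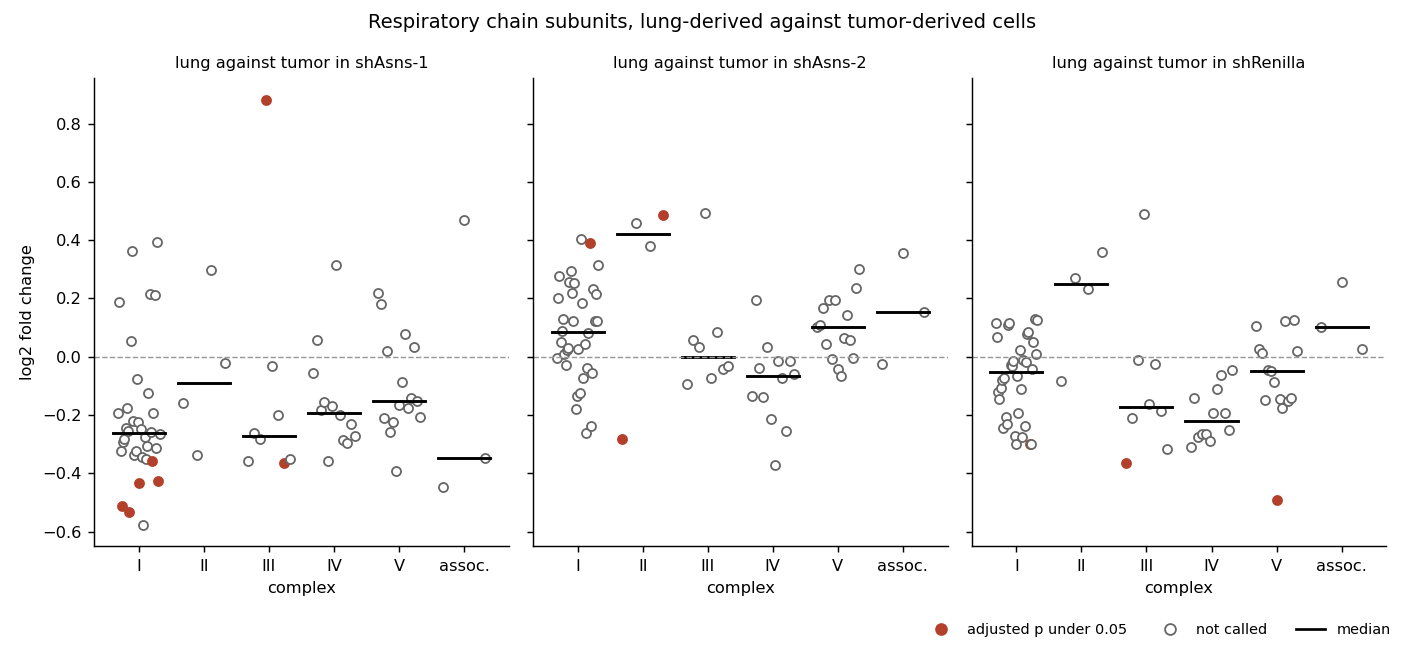
Log2 fold change of each member in lung-derived against tumor-derived cells, within the labels shAsns-1, shAsns-2 and shRenilla, by complex; filled points have an adjusted p under 0.05 and bars are medians. The median of complex I is -0.26 in shAsns-1, 0.08 in shAsns-2 and -0.05 in shRenilla, and Uqcrc1 is the top point of complex III in each panel.

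The rest of the pathway was followed through 5 lists of related genes. Over all genes tested, 16.2% were higher and 17.7% lower in tumor shAsns-1 against shRenilla, which is the background for the counts that follow. Among 39 tested assembly factors, which build the complexes but are not part of them, 5 were higher and 9 lower, with a median log2 fold change of -0.09. The 3 largest changes were rises, those of Ndufaf3, a complex I assembly factor (15.3 ± 1.38 CPM in shAsns-1 and 7.67 ± 1.81 CPM in shRenilla, adjusted p = 0.000424), Coa4 (0.66 ± 0.19, adjusted p = 0.00775) and Tmem126b (0.65 ± 0.17, adjusted p = 0.00507). Of 76 subunits of the mitochondrial ribosome, which translates the mitochondrial genes, 15 were higher and 4 lower, with a median of 0.06. Mrps6 rose most there (135 ± 13.2 CPM in shAsns-1 and 62.5 ± 4.47 CPM in shRenilla, adjusted p = 1.37e-06), followed by Mrpl54 (0.91 ± 0.23, adjusted p = 0.00371) and Mrps24 (0.74 ± 0.20, adjusted p = 0.00647).

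Among 21 electron carriers and other subunits outside the symbol pattern, 4 were higher and 4 lower in tumor shAsns-1, where 16.2% of all genes tested were higher and 17.7% lower. Atpif1, the inhibitor of ATP synthase, averaged 662 ± 33.5 CPM in shAsns-1 and 412 ± 50.8 CPM in shRenilla (0.69 ± 0.11, adjusted p = 3.55e-05). Among 20 genes of the tricarboxylic acid cycle and its entry, 2 were higher and 3 lower: Pdk1, which shuts pyruvate out of the cycle, had 0.67 ± 0.14 (adjusted p = 0.000584). Among 14 regulators of respiratory genes, 1 was higher and 1 lower: Hif1a averaged 740 ± 21.5 CPM in shAsns-1 and 479 ± 66.7 CPM in shRenilla (0.63 ± 0.17, adjusted p = 0.00617), and Myc 181 ± 23.9 CPM in shAsns-1 and 297 ± 54.8 CPM in shRenilla (-0.71 ± 0.14, adjusted p = 0.000372). With shAsns-2 in tumor, and with either hairpin in lung, no gene of any of the 5 lists was called.

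Between lung and tumor in the control hairpin, the regulators Myc (-0.80 ± 0.14, adjusted p = 0.000148), Ppargc1b (-0.91 ± 0.21, adjusted p = 0.00253) and Pprc1 (-0.59 ± 0.14, adjusted p = 0.00269) were lower in lung, and none of the 14 was higher, where 12.0% of all genes tested were higher and 9.82% lower. The same 3 regulators were lower in lung with shAsns-2 (10.9% of all genes tested were lower there), and Myc had 152 ± 13.7 CPM in lung and 295 ± 52.8 CPM in tumor (-0.96 ± 0.14, adjusted p = 1.97e-05). No regulator was called between the sites under the shAsns-1 label. In that label 12 mitochondrial ribosome subunits were lower and 1 was higher in lung, out of 76, where 2.54% of all genes tested were lower and 6.0% higher. Their median was -0.18, and Mrpl42 fell most (281 ± 22.1 CPM in lung and 457 ± 37.3 CPM in tumor, adjusted p = 0.00142).

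Reads of members with near copies elsewhere in the genome could be split by the authors' counting. Of 75 members with a transcript in GENCODE M21, 44 share at least some 50-base words with other genes, and 14 share over 25% of them. Among the called genes, Atp5g2 shares 87.4%, Atp5l 84.8%, Ndufs3 39.7%, Ndufa12 26.2%, Cox7a2l 19.8%, Ndufb11 17.5%, Ndufb5 16.2%, Ndufb8 13.5%, Ndufa11 12.5% and Atp5g1 11.6%, so their levels are uncertain by what such copies take. Ndufb7, Ndufv3, Sdhb, Uqcrc1 and Atp5e share none.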

How the data were processed

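Per the labels' protocols, total RNA was extracted with Trizol, and library preparation used NuGEN's Ovation RNAseq V2. The submitters' processing notes name Bowtie2, HTSeq and the build mm10; versions, annotation and strand setting are not given in the sources used here. The file deposited by the authors gives whole-number counts for each symbol, taken as they are.

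Genes were tested with edgeR 4.0.16 (R 4.3.3; quasi-likelihood fit of 24 libraries with a mean for each group, TMM scaling and filterByExpr, which kept 12625 genes, adjusted p under 0.05). SE was derived from the log2 fold change and its F statistic, and 95% intervals span 1.96 SE each side. The biological coefficient of variation was 14.9%. CPM used TMM scaling; levels per kb used the principal transcript of GENCODE M21 (GRCm38). Named genes were the called members with the 10 largest changes and the largest of each complex (or the 3 smallest p), core subunits, isoforms, the highest of each complex, and up to 3 called genes of each related list. Members and lists were chosen with earlier results of these data known. Of 11 planned comparisons and 1 added, alternatives were DESeq2 1.42.0, its size factors, limma 3.58.1, no filter, only compared groups, thinned counts, the replicate letter as a block, GC content and length offsets, and leaving out the 2 outlying or single libraries. Promoter words, shared words and single-library flags were chosen after seeing the data. The mitochondrially encoded subunits were not analysed here. Some genes covered by the naming rule are not reported here.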

Additional observations from a re-analysis of the deposited data

Results flagged for a closer look

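Single libraries were compared with the other 3 of their group by Dixon's ratio at its 95% critical value, for the summed CPM of each complex and for every member called in any comparison. Of 186 values 25 stood out, where chance gives about 5%, or 9. Lung shAsns-2 D was low in the sums of complex I (4793 CPM), II (660 CPM), III (1811 CPM), IV (4279 CPM) and V (5096 CPM). It was low in Atp5e (249 CPM), Atp5g1 (91.5 CPM), Atp5l (127 CPM), Cox7a2l (160 CPM), Ndufa12 (91.5 CPM), Ndufb8 (143 CPM), Ndufs3 (49.1 CPM), Ndufv2 (232 CPM), Sdha (137 CPM) and Sdhb (185 CPM). Lung shRenilla B was low in Atp5g1 (65.3 CPM), Ndufa11 (41.7 CPM), Ndufb11 (117 CPM), Ndufb7 (43.6 CPM) and Uqcr10 (181 CPM) and high in Sdha (196 CPM). The other values that stood out were high: lung shAsns-1 A in the sum of complex V (6506 CPM) and in Ndufs3 (70.7 CPM), lung shAsns-1 C in Ndufc1 (146 CPM), and tumor shAsns-1 A in Uqcrh (537 CPM).

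The difference of shAsns-1 against shAsns-2 was called different between lung and tumor for 5 of 76 members, by edgeR's test of that difference. All 5 were lower (6.58% of members), where 4.74% of all genes tested were lower and 6.89% were higher. This comparison was added after results were seen, and no call was kept under all other fits and with every library left out. The log2 values, lung minus tumor, were -0.65 for Ndufs3, -0.58 for Ndufb2, -0.57 for Ndufa12, -0.55 for Ndufv2 and -0.50 for Cox7a2l (adjusted p = 0.0229, 0.0221, 0.0274, 0.0462 and 0.0405).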

How the results depend on the processing

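No called member changed direction under any alternative. The counts below come without the share of all genes called under the same fit. They therefore do not set members apart from other genes. With limma and library weights 34 members were called for tumor shAsns-1 against shRenilla, 42 for tumor shAsns-1 against shAsns-2, 9 for lung shAsns-1 against shAsns-2, 48, 24 and 14 for lung against tumor in shAsns-1, shAsns-2 and shRenilla, and 22 and 44 for the difference between sites of shAsns-1 against shRenilla and against shAsns-2. Without lung shAsns-2 D and lung shRenilla B the same 8 comparisons, less lung shAsns-1 against shAsns-2 (0 calls), gave 30, 33, 36, 19, 9, 11 and 34. In fits restricted to the compared groups, 26 members were called for tumor shAsns-1 against shRenilla, 51, 0 and 0 for lung against tumor in shAsns-1, shAsns-2 and shRenilla, and 3 and 13 for the differences between sites. With GC content and length offsets these last 5 comparisons gave 12, 8, 7, 5 and 12. DESeq2 called 15 members for lung against tumor in shAsns-1 and 10 for the difference between sites of shAsns-1 against shAsns-2, where thinned counts gave 3; no filter gave 1 for lung against tumor in shRenilla.

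Leaving out each library in turn gave 4 to 24 calls for tumor shAsns-1 against shRenilla, 13 to 29 for tumor shAsns-1 against shAsns-2, 2 to 20, 0 to 13 and 0 to 5 for lung against tumor in shAsns-1, shAsns-2 and shRenilla, and 0 to 4 and 0 to 27 for the differences between sites. The 27 calls came without lung shAsns-2 D and the 29 and 20 without lung shRenilla B. With the replicate letter as a block, 19 members were called for tumor shAsns-1 against shRenilla and 21 against shAsns-2, and the block moved no other count by over 1.5 times. The letters were not treated as a pairing: same-letter correlations had a median of 0.01 (-0.41 to 0.46), and 9 of 24 libraries correlated best with their own letter. The causes of these shifts were not tested. Summed CPM per complex did not depend on the minimum count. Depth limits Cox7a1 and the 6 isoform genes under the minimum most; Ndufs5, listed at 0 in every library, is not accounted for by depth.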
